A study of Danio rerio with 6 samples.

Results

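The Notch signalling genes described here are 10 rows of a deposited expression table of 25089 zebrafish genes. They were chosen by symbol: the receptors notch1a, notch1b, notch2 and notch3, the ligands dll4, jag1b and jag2b, and the transcriptional repressors hey1, hey2 and her6. RNA was sequenced from cells labelled as purified cardiomyocytes, sorted by fluorescence from the apex of the cardiac ventricle of Gata4:GFP fish, in which green fluorescent protein reports the cardiac transcription factor gene gata4. Regenerating libraries (n = 3) came from hearts 5 days after the ventricular apex was resected, with wound tissue cleared away before dissociation. Uninjured libraries (n = 3) came from hearts that were not resected. All 6 libraries carry the same reporter and no other allele or agent is named, and the age of the fish and the number pooled per library are not given in the sources used here.

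Notch is a receptor that is read by contact between neighbouring cells. A Delta or Jagged ligand on the next cell pulls on the receptor, an ADAM protease and then gamma-secretase cut it, and the freed intracellular part enters the nucleus. There it joins the DNA-binding protein Rbpj and Mastermind and switches on genes of the Hes, Her and Hey families, whose products repress transcription. In the heart the pathway is best known from endocardium and vessels, and in zebrafish it is active in endocardium and epicardium during regeneration. The repressor gene hey2, also called gridlock, is known for its part in artery formation and in the ventricular myocardium of zebrafish.

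Levels are given in scaled FPKM, a measure of fragments relative to transcript length and library size, after the libraries were scaled to a common median ratio. Changes are differences of log2(scaled FPKM + 1), regenerating minus uninjured, tested with limma and called at a Benjamini-Hochberg adjusted p below 0.05 over the 13319 genes tested. The log2(FPKM + 1) scale understates the change of low genes. Summed FPKM ran from 508557 to 535337 in regenerating libraries and from 422675 to 460407 in uninjured ones, and 13 mitochondrially encoded genes took 14.0% ± 4.36 of it in regenerating and 34.5% ± 11.1 in uninjured libraries (SD, n = 3 each). FPKM is a share of each library, and the median change of all tested genes was 0.51 without scaling and 0.05 with it. The table gives no counts per library, so depth is unknown and errors come from the replicate spread alone. The labels do not say whether replicates were separate groups of fish, so this spread may be technical.

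The receptors, ligands and repressors did not move as a block. The repressor her6 was higher in regenerating cells, hey2 was lower, and the other 8 genes did not pass the threshold. All 10 genes passed the filter on low values. Of all tested genes, 7.50% were called higher and 3.94% lower, so 1 of 10 in each direction is near the background. The median change of the 10 genes was 0.03, against 0.05 over all tested genes. Groups did not overlap for her6 and dll4, which were higher, and for hey2, notch1a and notch3, which were lower. Groups that do not overlap were found for 19.1% of all tested genes in the higher direction and 13.7% in the lower.

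**Figure D1:**
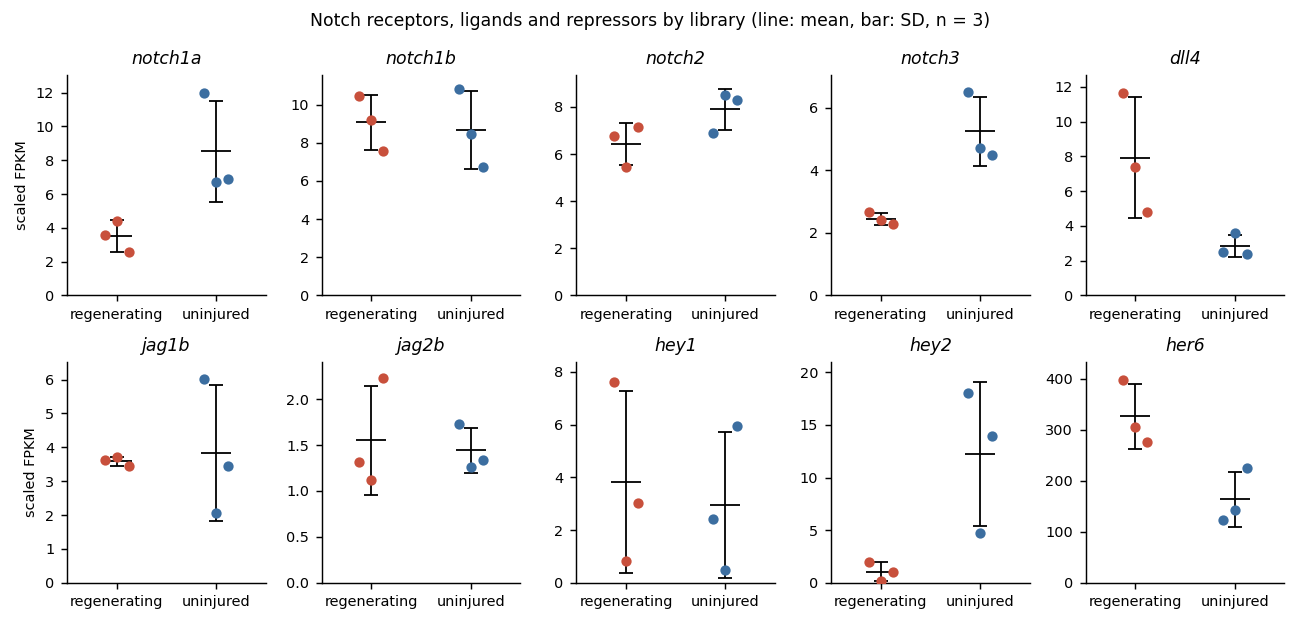
Scaled FPKM of the 10 Notch pathway genes, with regenerating libraries on the left of each panel and uninjured libraries on the right. Each point is a library, lines are means and bars the SD (n = 3). The values of hey2 lie below 2 scaled FPKM in the regenerating libraries and above 4.7 in the uninjured ones, and the values of her6 lie above 275 in regenerating and below 225 in uninjured libraries.

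The receptor notch1b (ENSDARG00000052094), a duplicate of the mammalian NOTCH1 type known from endothelium and blood stem cell formation, was the most abundant receptor in regenerating cells. It measured 10.4, 9.21 and 7.56 scaled FPKM in regenerating libraries and 10.8, 8.44 and 6.73 in uninjured libraries. The groups lay on top of each other. Its change was 0.07 (SE 0.27, limma adjusted p = 0.894), and the 95% interval of -0.53 to 0.67 leaves room for a moderate difference either way. Without scaling the change was 0.62 (limma adjusted p = 0.172).

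The receptor notch3 (ENSDARG00000052139), known in mammals and fish for its role in the mural cells around vessels, measured 2.67, 2.41 and 2.30 scaled FPKM in regenerating libraries and 6.51, 4.73 and 4.51 in uninjured libraries. The regenerating libraries were close together and all lay below the uninjured ones. The change was -0.84 (SE 0.27), which missed the threshold in limma (adjusted p = 0.0729). The authors' deposited table lists notch3 with a log2 fold change of -1.20 and an adjusted p of 0.00118, so it passes there. The limma change was -0.36 without scaling (adjusted p = 0.388).

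The receptor notch2 (ENSDARG00000043130), a broadly expressed member of the family, measured 6.75, 5.44 and 7.14 scaled FPKM in regenerating libraries and 6.91, 8.50 and 8.29 in uninjured libraries. Its groups overlapped, with a change of -0.26 (SE 0.25, limma adjusted p = 0.550) and a change of the other sign, 0.28, without scaling.

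The row for notch1a (ENSDARG00000103554), the other NOTCH1 duplicate, is less certain than the rest. It measured 3.57, 4.42 and 2.54 scaled FPKM in regenerating libraries and 11.98, 6.73 and 6.88 in uninjured libraries, and all regenerating values lay below the uninjured ones. The change was -1.06 (SE 0.31, limma adjusted p = 0.0558). The authors' deposited table gives the same row a log2 fold change of 0.09 and an adjusted p of 0.948, which differs in sign. That table also gives notch1a a length of 609 nt (rounded), against 9908 nt for notch1b and 10095 nt for notch2. The mean normalised count per FPKM and kilobase was 16.5 for notch1a, while the middle 50% of tested genes lay between 5.04 and 6.57 and notch1b had 6.91. The deposited length and FPKM of notch1a therefore do not go with its count in the way other genes do, and its level and direction are uncertain. Reads shared between notch1a and notch1b could not be checked here.

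With notch1a left out for that reason, notch3 made up less of the receptors' summed scaled FPKM in every regenerating library than in any uninjured one. The share of notch3 was 13.5%, 14.1% and 13.5% in regenerating libraries and 26.9%, 21.8% and 23.1% in uninjured libraries. The share of notch1b was 52.5%, 54.0% and 44.5% in regenerating libraries and 44.6%, 39.0% and 34.5% in uninjured libraries, with regenerating replicate 3 just under uninjured replicate 1. The share of notch2 averaged 36.0% ± 5.34 in regenerating and 36.7% ± 7.30 in uninjured libraries (SD, n = 3 each). Levels were also compared within each library, as log2(scaled FPKM + 1). For notch3 minus notch1b this gave -1.53 ± 0.14 in regenerating libraries and -0.62 ± 0.12 in uninjured libraries (SD, n = 3 each). For the difference of -0.91 a two-sided exact permutation test gave p = 0.1, below which a design of 3 and 3 libraries cannot go, and an adjusted p of 0.15 over the 3 gene pairs compared.

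**Figure D2:**
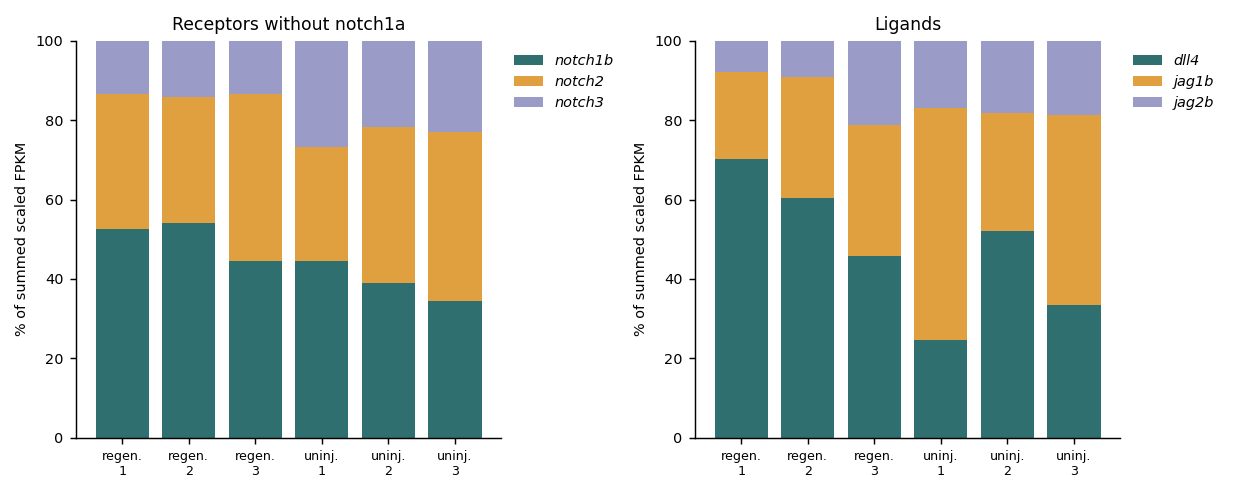
Left, shares of notch1b, notch2 and notch3 in their summed scaled FPKM, in percent, for each library; right, the same for dll4, jag1b and jag2b. Regenerating libraries stand left of uninjured ones, and notch3 takes 13.5% to 14.1% of the receptor sum in regenerating libraries and 21.8% to 26.9% in uninjured ones.

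Among the ligands, dll4 (ENSDARG00000070425), the Delta ligand of arterial and sprouting endothelium, measured 11.6, 7.39 and 4.77 scaled FPKM in regenerating libraries and 2.52, 3.60 and 2.41 in uninjured libraries. Every regenerating library lay above every uninjured one, although the lowest and highest regenerating values differed widely. The mean was 2.79-fold higher in regenerating cells, with a change of 1.16 (SE 0.33) that just missed the threshold in limma (adjusted p = 0.0530). It passed without scaling (change 1.64, limma adjusted p = 0.0104), and the authors' deposited table gives it a log2 fold change of 1.28 and an adjusted p of 0.0208. Across 15 alternatives the limma adjusted p ran from 0.0104 to 0.211, and dll4 passed in 4 of them.

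The Jagged ligand jag1b (ENSDARG00000013168), one of the duplicates of mammalian JAG1, measured 3.62, 3.71 and 3.45 scaled FPKM in regenerating libraries and 6.002, 2.05 and 3.43 in uninjured libraries. The regenerating values lay inside the uninjured range. The change was 0.01 (SE 0.33, 95% interval -0.74 to 0.76, limma adjusted p = 0.989). The least abundant ligand, jag2b (ENSDARG00000021389), a duplicate of JAG2, measured 1.31, 1.12 and 2.23 scaled FPKM in regenerating libraries and 1.73, 1.26 and 1.34 in uninjured libraries. Its groups overlapped as well, with a change of 0.04 (SE 0.26, limma adjusted p = 0.931).

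The share of dll4 in the summed scaled FPKM of these ligands was 70.2%, 60.5% and 45.7% in regenerating libraries and 24.6%, 52.0% and 33.5% in uninjured libraries. Uninjured replicate 2 was above regenerating replicate 3, so the groups overlapped. As log2(scaled FPKM + 1), dll4 minus jag1b averaged 0.89 ± 0.54 in regenerating and -0.26 ± 0.80 in uninjured libraries (SD, n = 3 each). The difference of 1.15 gave p = 0.2 in the same exact permutation test (adjusted p = 0.2).

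The repressor hey2 (ENSDARG00000013441) had the largest change of the 10 genes. It measured 1.96, 0.162 and 1.03 scaled FPKM in regenerating libraries and 18.0, 4.74 and 13.9 in uninjured libraries. All regenerating values were below all uninjured ones, and replicate 2 was the lowest library of each group. The mean was 11.6-fold lower in regenerating cells, and the change was -2.62 (SE 0.49, 95% interval -3.72 to -1.53, limma adjusted p = 0.0104). The value of 0.162 in regenerating replicate 2 is close to the floor that the table keeps for genes without counts, which at this length of 1816 nt is between 0.0631 and 0.125 scaled FPKM, so the fold is uncertain in size. The authors' deposited table gives hey2 a log2 fold change of -3.26 and an adjusted p of 1.20e-06. The call was lost in limma without regenerating replicate 2 (change -2.24, adjusted p = 0.0503) and with no filter on low values (adjusted p = 0.0569), and it held in the other 13 alternatives.

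The repressor her6 (ENSDARG00000006514), the zebrafish relative of mammalian HES1, was by far the most abundant of the 10 genes. It measured 398, 305 and 275 scaled FPKM in regenerating libraries and 124, 142 and 224 in uninjured libraries. Every regenerating library was above every uninjured one, and uninjured replicate 3 came nearest. Its mean level was above 99.0% of tested genes in regenerating cells and above 98.3% in uninjured cells. The mean was 1.99-fold higher in regenerating cells, with a change of 1.02 (SE 0.28, 95% interval 0.39 to 1.65, limma adjusted p = 0.0458). This call lay close to the threshold: the limma adjusted p ran from 0.00703 to 0.184 over 15 alternatives and passed in 5 of them, always with a higher level in regenerating cells. Leaving out any library except uninjured replicate 3 ended the call, with changes between 0.85 and 1.14. The authors' deposited table gives her6 a log2 fold change of 0.85 and an adjusted p of 0.0365.

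The repressor hey1 (ENSDARG00000070538), known in mammals as a target of Notch in endothelium, varied more between libraries of a group than between groups. It measured 7.61, 0.821 and 3.04 scaled FPKM in regenerating libraries and 2.40, 0.475 and 5.95 in uninjured libraries, with replicate 2 again the lowest of each group. Its change was 0.29 (SE 0.64, 95% interval -1.13 to 1.71, limma adjusted p = 0.809), an interval wide enough to hold a change of either sign. The levels of hey2 and hey1 were also compared within each library, as log2(scaled FPKM + 1). For hey2 minus hey1 this gave -1.54, -0.65 and -0.99 in regenerating libraries and 2.49, 1.96 and 1.103 in uninjured libraries. Thus hey1 was above hey2 in every regenerating library and below it in every uninjured library. This scale understates gaps between low values, and hey2 in regenerating replicate 2 was close to the floor. The difference of -2.91 between the groups gave p = 0.1 in the exact permutation test, again its lower limit (adjusted p = 0.15).

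Across the 21504 genes with a mean normalised count above 0, the authors' deposited table calls 4.84% higher and 4.62% lower at an adjusted p below 0.05. This base includes low genes that did not pass the filter used here, while all 10 Notch genes passed it, so the shares are not matched. Of the 10 Notch genes it calls her6 and dll4 higher and hey2 and notch3 lower. In the limma fit without scaling, which calls 23.7% of tested genes higher and 1.52% lower, her6 and dll4 were higher and hey2 was lower. The sign of the scaled change differed from that of the authors' fold change for 3 genes, notch1a, notch1b and jag1b, none of which passed in either.

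**Figure D3:**
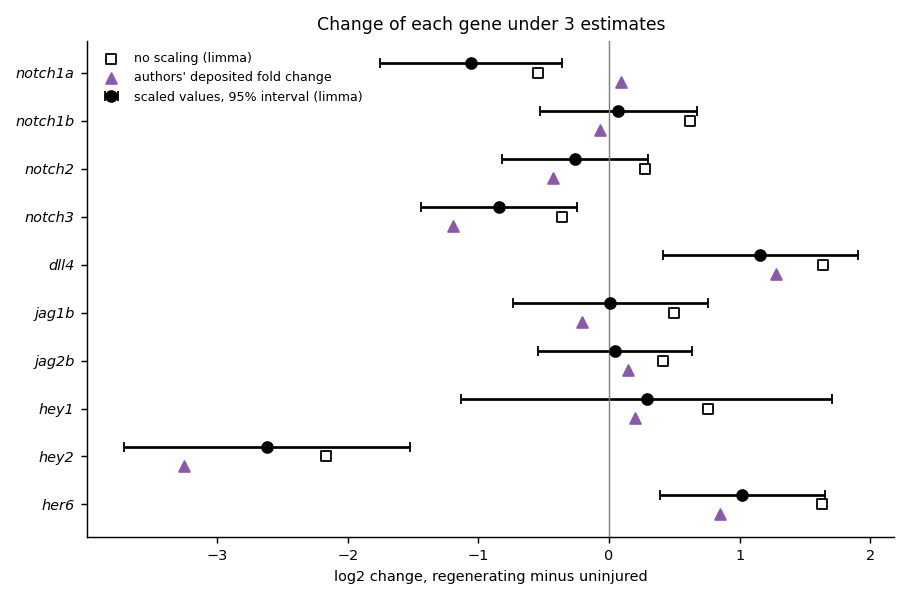
Log2 change of each gene, regenerating minus uninjured. Circles are the limma changes on scaled values with 95% intervals, squares the limma changes without scaling, and triangles the authors' deposited log2 fold changes; the estimates for hey2 lie between -3.26 and -2.17, and those for notch1a lie on both sides of 0.

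The rest of the pathway was described through 6 lists of genes by role, with 84 symbols. These led to 74 different genes, since some symbols were not found and some fell on the same gene. Of the 74 genes, 50 passed the filter. In the scaled fit 6 of the 50 were higher in regenerating cells, 2 were lower and 42 did not pass, against 7.50% higher and 3.94% lower over all tested genes. The median change of the 50 was 0.02. Without scaling limma called 12 of the 50 higher and none lower, against 23.7% higher and 1.52% lower over all tested genes, so the share of higher genes is near the background. The count of higher genes was 2 when regenerating replicate 1 was left out and 3 when regenerating replicate 2 was left out.

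The largest rise in these lists was in her9, a further zebrafish gene of the Hes family. It measured 383, 279 and 391 scaled FPKM in regenerating libraries and 66.4, 42.5 and 92.0 in uninjured libraries. The groups were far apart, with a change of 2.42 (SE 0.31, limma adjusted p = 0.00182) that passed in all 15 alternatives. The gene nrarpa, which encodes a small ankyrin repeat protein that is induced by Notch and dampens it, measured 32.9, 16.5 and 17.6 scaled FPKM in regenerating libraries and 9.20, 2.86 and 8.51 in uninjured libraries. It rose by 1.63 (SE 0.42, limma adjusted p = 0.0340), and its call was lost in 6 of 15 alternatives, with the highest limma adjusted p, 0.138, without regenerating replicate 1. Its duplicate nrarpb had a change of 0.15 (SE 0.41, limma adjusted p = 0.846).

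Of the 22 other Hes, Her and Notch target genes found, 7 passed the filter and her9 and nrarpa were the ones called. Over all tested genes 7.50% were called higher. The 15 listed genes that did not pass the filter were low. Of the 22, 12 exceeded 1 FPKM in no regenerating library and 15 in no uninjured library. The genes her4.1 and her15.1 of tandem arrays had changes of 0.47 each (SE 0.35 and 0.29), and reads shared with near-identical copies make their levels uncertain. These genes and nrarpb were picked out after their values were seen.

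Among the 9 tested genes of receptor cleavage, 3 rose and none fell, against 7.50% called higher and 3.94% lower over all tested genes. The protease gene adam10a, which makes the first cut in the activated receptor, measured 36.1, 34.9 and 33.8 scaled FPKM in regenerating libraries and 14.4, 15.0 and 18.0 in uninjured libraries. It rose by 1.1003 (SE 0.22, limma adjusted p = 0.0147), and the call was lost in 1 alternative, without regenerating replicate 1 (adjusted p = 0.0712). The gamma-secretase subunit gene aph1b measured 18.0, 13.1 and 14.5 scaled FPKM in regenerating libraries and 5.13, 3.75 and 3.14 in uninjured libraries. It rose by 1.70 (SE 0.27, limma adjusted p = 0.00508), in all 15 alternatives. The third riser was psen2, which encodes a catalytic presenilin, with a change of 1.02 (SE 0.26, limma adjusted p = 0.0337). Its call was lost in 7 of 15 alternatives. In the authors' deposited table psen2 does not pass (log2 fold change 1.19, adjusted p = 0.0927). Of the 10 cleavage genes found, that table calls 2 higher, adam10a and aph1b, and none lower. It calls 4.84% higher and 4.62% lower over genes with counts, a base that includes many low genes, so the shares are not matched. The subunit gene psenen had a change of 0.99 (SE 0.35, limma adjusted p = 0.105). The genes psen2 and psenen were picked out after their values were seen.

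The fringe gene lfng encodes a glycosyltransferase that tunes which ligands a Notch receptor answers to. It measured 47.3, 49.4 and 20.2 scaled FPKM in regenerating libraries and 14.4, 7.63 and 8.52 in uninjured libraries, with regenerating replicate 3 much nearer to the uninjured libraries than the others of its group. It rose by 1.78 (SE 0.38, limma adjusted p = 0.0170). It was the 1 gene called among the 5 of receptor glycosylation, against 7.50% called higher over all tested genes. Its call was lost without regenerating replicate 1 (adjusted p = 0.0801), without regenerating replicate 2 (adjusted p = 0.0733), without uninjured replicate 3 (adjusted p = 0.0507) and with no filter (adjusted p = 0.0723), all by limma.

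The falls were in dtx3, a Deltex family ubiquitin ligase gene, and in spen, a corepressor gene. They were 1 of 13 tested genes of ligand and receptor trafficking and 1 of 15 of the nuclear complex. Over all tested genes 3.94% were called lower, so each count is near the background. The gene dtx3 measured 2.71, 6.16 and 3.10 scaled FPKM in regenerating libraries and 8.90, 18.0 and 13.0 in uninjured libraries, a change of -1.53 (SE 0.35, limma adjusted p = 0.0225). The gene spen, whose product in mammals represses Notch targets together with RBPJ, measured 3.60, 4.25 and 3.49 scaled FPKM in regenerating libraries and 7.27, 9.17 and 7.91 in uninjured libraries, a change of -0.93 (SE 0.25, limma adjusted p = 0.0423). These limma calls are fragile. That of dtx3 was lost in 6 of 15 alternatives and that of spen in 8, including the fit without scaling for both. The authors' deposited table lists dtx3 with a log2 fold change of -2.08 (adjusted p = 0.000311) and spen with -1.22 (adjusted p = 0.000252). Both pass there. The Rbpj genes themselves, rbpja (0.55, SE 0.31) and rbpjb (-0.15, SE 0.28), did not pass in limma. Nor did the Mastermind gene maml3 (-0.90, SE 0.27, limma adjusted p = 0.0574). The Rbpj genes and maml3 were picked out after their values were seen. In the authors' deposited table maml3 passes (log2 fold change -1.26, adjusted p = 0.00235). That table calls 3 of the 15 nuclear complex genes lower and none higher, against 4.62% lower and 4.84% higher over genes with counts. Those shares include low genes that did not pass the filter, while all 15 genes passed it, so they are not matched. Among other ligands only the Delta gene dlc passed the filter, with a change of -0.56 (SE 0.33, limma adjusted p = 0.306).

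**Figure D4:**
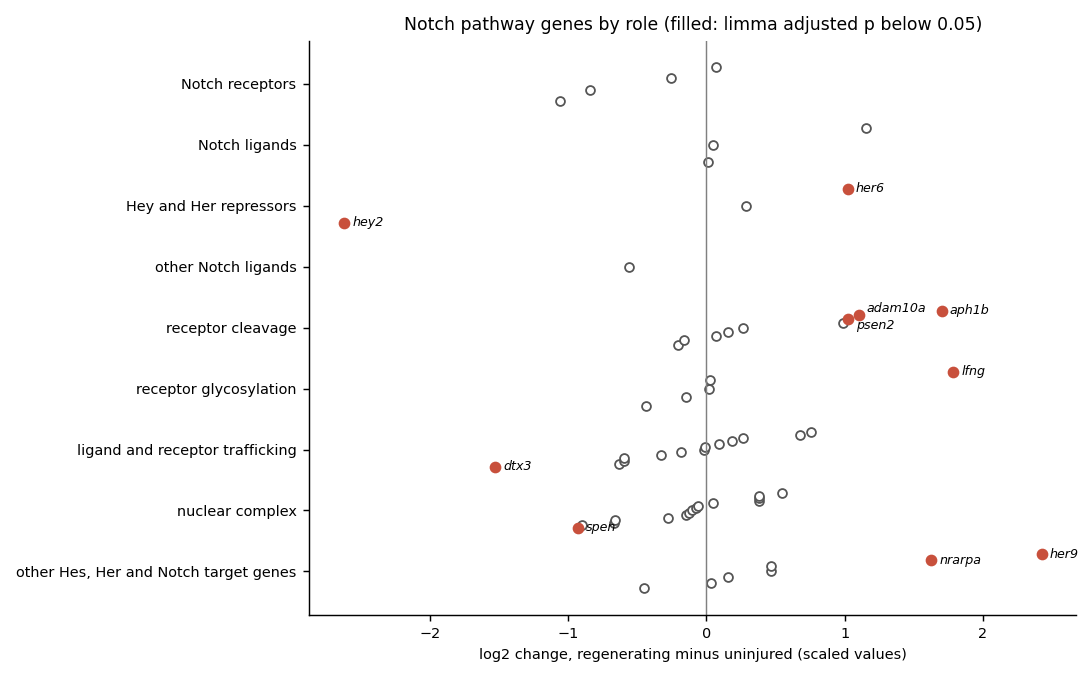
Log2 change of the 10 Notch genes and of 50 further tested pathway genes, grouped by role, regenerating minus uninjured on scaled values. Filled points carry their symbol and passed the limma threshold; hey2 lies lowest at -2.62 and her9 highest at 2.42.

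Transcripts of several cell types moved with these groups, and in sorted bulk RNA fewer cells of a type and less RNA per cell cannot be told apart. Cardiomyocyte markers were abundant in all libraries, and of 32 endothelial and endocardial markers all but 1 exceeded 1 FPKM in some regenerating library and all but 4 in some uninjured library. The table keeps a floor above 0 for genes without counts, so it cannot show a marker at 0. Of 28 tested endothelial and endocardial markers, 8 were higher and none lower in regenerating cells, with a median change of 0.79. Over all tested genes 7.50% were called higher and 3.94% lower. Without scaling limma called 16 of these 28 markers higher and none lower, against 23.7% higher and 1.52% lower over all tested genes. The summed level of the endothelial and endocardial list was 444 to 751 scaled FPKM in regenerating libraries and 263 to 382 in uninjured libraries. The part of these cells in the values of dll4, lfng and the other genes above was not tested.

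The endothelial receptor gene kdrl measured 17.6, 12.7 and 10.1 scaled FPKM in regenerating libraries and 5.03, 7.40 and 4.37 in uninjured libraries, a change of 1.12 (SE 0.30, limma adjusted p = 0.0387). The 6 libraries stood in the same order for kdrl as for dll4. The endothelial cadherin gene cdh5 (1.28, SE 0.34, limma adjusted p = 0.0391) and the flow-responsive gene klf2a (1.02, SE 0.27, limma adjusted p = 0.0393) were also higher. Their libraries stood in other orders than those of dll4. In uninjured libraries cdh5 measured 13.0, 7.96 and 11.7 scaled FPKM and klf2a 66.2, 47.7 and 70.9. Uninjured replicate 2 was thus the lowest of its group for both, but the highest of its group for dll4. The channel gene aqp8a.1 (1.59, SE 0.65, limma adjusted p = 0.153) did not pass. Among markers not called, fli1a (-0.43, SE 0.36), cldn5b (-0.65, SE 0.37) and tal1 (-0.51, SE 0.53) had changes below 0, with overlapping groups. The genes fli1a, cldn5b and tal1 were picked out after their values were seen. The endocardial transcription factor gene nfatc1 measured 16.5, 18.8 and 18.7 scaled FPKM in regenerating libraries and 11.3, 20.4 and 25.3 in uninjured libraries, and its groups overlapped (change 0.00, SE 0.31, 95% interval -0.69 to 0.68).

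Of 13 cardiomyocyte markers 4 were lower and none higher, against 3.94% lower and 7.50% higher over all tested genes. The median change of these markers was -0.83. Their summed level was 4962 to 9076 scaled FPKM in regenerating libraries and 7454 to 14313 in uninjured libraries, so these ranges overlapped. The light chain gene myl7 (-0.83, SE 0.41) and the tropomyosin gene tpm4a (-0.48, SE 0.33) did not pass, and without scaling tpm4a had the other sign (0.13). The markers called lower were the myosin gene vmhcl (-2.30, SE 0.27, limma adjusted p = 0.00134), the titin gene ttn.2 (-2.34, SE 0.27, limma adjusted p = 0.00120), the myosin-binding protein gene mybpc3 (-1.66, SE 0.33, limma adjusted p = 0.0138) and the calcium release channel gene ryr2b (-1.86, SE 0.32, limma adjusted p = 0.00736), and their groups did not overlap. Among the markers not called, the natriuretic peptide genes nppa (0.56, SE 0.61) and nppb (0.42, SE 0.40) had changes above 0, with overlapping groups. These 4 falling markers, nppa and nppb were picked out after their values were seen. Without scaling limma called 3 of the 13 markers lower and none higher, against 1.52% lower and 23.7% higher over all tested genes. There mybpc3 did not pass (-1.05, limma adjusted p = 0.0834). The part of cardiomyocyte content in the fall of hey2 was not tested.

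Of 12 smooth muscle and pericyte markers 6 were lower and 3 higher, against 3.94% lower and 7.50% higher over all tested genes. The median change of these markers was -0.97. Their summed level was 416 to 468 scaled FPKM in regenerating libraries and 679 to 786 in uninjured libraries. The most abundant were the actin gene acta2, which was lower (-1.38, SE 0.24, limma adjusted p = 0.00839), and rgs5b, which was higher (2.31, SE 0.32, limma adjusted p = 0.00277). Pericyte markers did not all go with rgs5b: its duplicate rgs5a was lower (-2.18, SE 0.22, limma adjusted p = 0.000796), as was the proteoglycan gene cspg4 (-1.61, SE 0.25, limma adjusted p = 0.00508), while the receptor gene pdgfrb was higher (1.09, SE 0.28, limma adjusted p = 0.0332). Of the other markers in this list, myh11a, cnn1b and myocd were lower and tagln was higher. The genes beyond acta2 and rgs5b were picked out after their values were seen. The part of mural cells in the values of notch3 was not tested.

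Markers of several further cell types moved with the groups as well, and their part in the Notch gene values was not tested. Without scaling limma called 10 epicardial, 11 fibroblast, 2 macrophage and leukocyte and 6 erythrocyte markers higher, and 2 thrombocyte markers lower. Over all tested genes that fit called 23.7% higher and 1.52% lower. The authors' deposited table calls 9 endothelial and endocardial, 9 epicardial and 8 fibroblast markers higher. It also calls 3 smooth muscle and pericyte, 1 macrophage and leukocyte and 1 erythrocyte marker higher. Lower there are 6 cardiomyocyte, 6 smooth muscle and pericyte, 5 thrombocyte and 1 macrophage and leukocyte marker. Over genes with counts, a base that includes low genes, it calls 4.84% higher and 4.62% lower. The counts below are from the scaled fit and stand against 7.50% called higher and 3.94% called lower over all tested genes. Of 13 epicardial markers 10 were higher and none lower (median change 2.08), with a summed level of 1113 to 2483 scaled FPKM in regenerating libraries and 473 to 612 in uninjured libraries. The most abundant were the keratin gene krt15 (0.66, SE 0.35, not called) and gstm.3 (3.54, SE 0.39, higher). Of 12 fibroblast markers 8 were higher and none lower (median change 2.82), with a summed level of 1565 to 1734 scaled FPKM in regenerating libraries and 298 to 443 in uninjured libraries. The collagen gene col1a1a was higher (3.19, SE 0.42) and the decorin gene dcn was not called (0.97, SE 0.33). Of 9 tested macrophage and leukocyte markers 1 was higher (median change 0.21), which is near the background. Their summed levels overlapped at 49.4 to 144 scaled FPKM in regenerating libraries and 104 to 118 in uninjured libraries. Of the invariant chain duplicates, cd74a had a change of -0.57 (SE 0.42) and cd74b one of -0.57 (SE 0.45); they were not called and had the other sign without scaling (0.03 and 0.02). Of 6 thrombocyte markers 2 were lower (median change -1.04), with a summed level of 90.5 to 155 scaled FPKM in regenerating libraries and 218 to 424 in uninjured libraries, and the most abundant, thbs1b (-0.91, SE 0.29) and itga2b (-1.17, SE 0.38), were not called. Of 8 erythrocyte markers 3 were higher (median change 2.39), with a summed level of 382 to 1069 scaled FPKM in regenerating libraries and 19.8 to 440 in uninjured libraries. The globin genes hbba1 (3.35, SE 1.18) and hbaa1 (3.66, SE 1.102) were not called, and their copies can share reads.

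**Figure D5:**
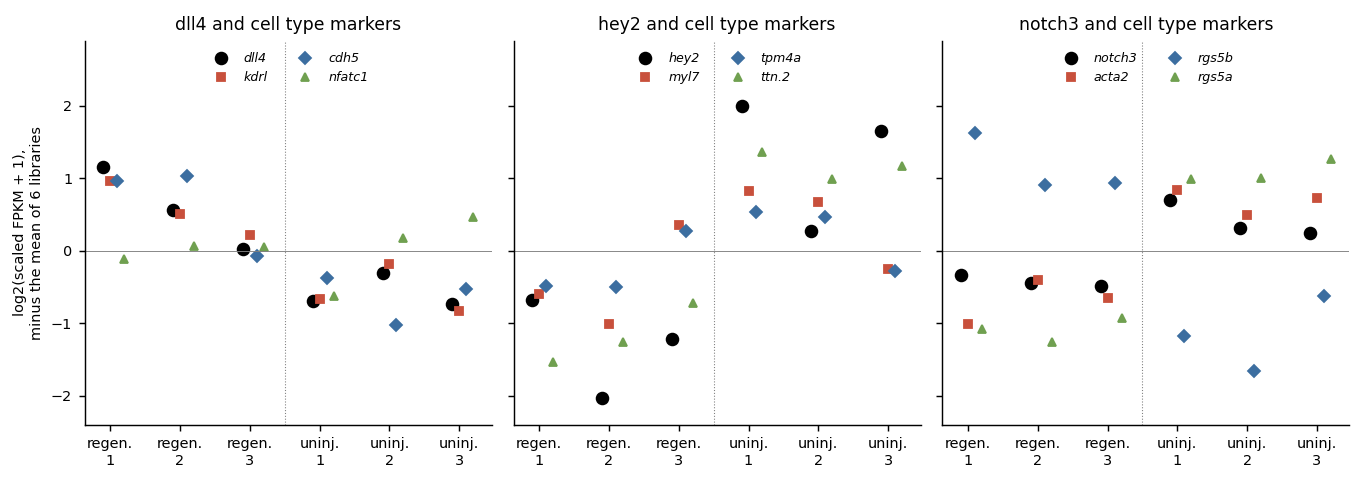
Values of dll4, hey2 and notch3 with cell type markers in each library, as log2(scaled FPKM + 1) minus the mean of the 6 libraries; regenerating libraries stand left of the dotted line and uninjured ones right of it. The points of dll4 lie near those of kdrl, and cdh5 was also higher in all regenerating libraries, while the groups of nfatc1 overlapped. Both hey2 and ttn.2 lie below 0 in every regenerating and above 0 in every uninjured library. In contrast, the groups of myl7 and tpm4a overlapped. In the right panel notch3 lies on the same side of 0 as acta2 and rgs5a and on the other side from rgs5b.

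Genes most like the leading receptor, ligand and repressor were found by the root mean square difference of centred log2 values over the 6 libraries, as a description without a test. For dll4 they were kdrl (0.13), znf521 (0.17) and igfbp6b (0.17). For notch1b they were dusp16 (0.06), map3k20 (0.07) and zgc:103499 (0.07). For her6 they were prelid1a (0.05), FO704779.1 (0.09) and ube3c (0.12).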

How the data were processed

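Cells were sorted from ventricle apexes of zebrafish and sequenced as 2 groups of 3 libraries, taken from the sample titles. Per the submitters' processing notes, STAR 2.5.3a, RSEM 1.3.0, R 3.3.3, DESeq2 and the build GRCz10 were used. The authors deposited log2 FPKM per library, per the file headers. After the log2 was undone the lowest value was 0.1, which was removed as an offset. They also deposited a mean normalised count (a signal pooled over libraries), a length, and the results of their own comparison (log2 fold change, p-value, adjusted p-value). No count test was possible on FPKM.

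Computed here were scaled values (median ratios over 8924 genes above 1 FPKM in all 6 libraries), a filter (above 1 FPKM in at least 3 libraries, 13319 of 25089 genes), log2(value + 1) and a limma fit (version 3.58.1, R 4.3.3) on group alone, with the prior variance trended on intensity, adjusted by Benjamini-Hochberg over all tested genes. The fit was tested on simulated data. Pairs of genes were compared within libraries by exact permutation tests (scipy 1.17.1). The 3 pairs of members were picked without a rule set beforehand, and their adjusted p covers these 3 alone. The genes, the scaling, the 6 pathway lists and the 8 marker lists were chosen with earlier results of these data known. Genes named by rule beyond the 10 are up to 2 called genes per direction of a pathway list by smallest p, the 2 most abundant genes of each marker list, and kdrl, cdh5 and nfatc1. The genes most like a member were found by likeness of pattern. Other named genes fall outside these rules: those marked as picked out after their values were seen, and dlc and her2. Symbols missing from the table were looked up in a table of gene names. Same-numbered libraries of the groups were not taken as pairs. Coordinates, sequences and promoter motifs were not analysed here, since the available gene tables carry no sequence and belong to a build other than that of the submitters.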

Additional observations from a re-analysis of the deposited data

How the results depend on the processing

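Of the 10 Notch genes, 1 was higher (her6) and 1 lower (hey2) as reported. With no intensity trend, and without regenerating replicate 3, the higher count stayed at 1 but the gene was dll4. There the limma adjusted p was 0.0492 and 0.0463 for dll4, and 0.0588 and 0.0747 for her6. With the stricter filter jag2b was not tested. The higher count was 2 without scaling and with the stricter filter of 3 FPKM, and 0 with upper-quartile scaling, with scaling without mitochondrially encoded genes, with no filter and with the replicate block; leaving out single libraries gave 0 to 1. The lower count was 2 with upper-quartile scaling and with the stricter filter, and 0 with no filter; leaving out single libraries gave 0 to 1. Of the other pathway genes, 6 were higher and 2 lower as reported. The higher count was 12 without scaling and 3 with no filter, and leaving out single libraries gave 2 to 6. The lower count was 0 without scaling, 0 with no filter and 1 with the replicate block, and leaving out single libraries gave 0 to 2 (0 without regenerating replicates 1 or 3 or uninjured replicates 2 or 3, and 1 without regenerating replicate 2). All genes called numbered 1524 as reported, 3364 without scaling and 681 with no filter, and 528 to 1599 with single libraries left out (528, 815 and 804 without regenerating replicates 1, 2 and 3). The same-numbered libraries did not deviate together from their group means over all tested genes (correlations -0.01, 0.00 and -0.06 for replicates 1, 2 and 3). The labels name no pairs, and with 3 libraries per group these correlations cannot show whether same-numbered libraries share a batch. The replicate block left 1402 genes called.

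Changes near 0 turned sign. Without scaling notch2 was 0.28. With upper-quartile scaling notch1b was -0.016, jag1b -0.067 and jag2b -0.014, and jag1b was -0.032 with scaling without mitochondrially encoded genes. With single libraries left out notch1b ran from -0.082 to 0.23, jag1b from -0.28 to 0.33, jag2b from -0.13 to 0.18 and hey1 from -0.29 to 0.86. The cause of these shifts was not tested. Depth per library is not known. The floor of the table depends on gene length: its median times length in kilobases was 0.115 to 0.228 scaled FPKM across libraries. Short genes therefore have a higher floor, up to 0.294 scaled FPKM for her2.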

Other observations

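The repressor genes her6 and her9 were both abundant. The ratio of her9 to her6, both per length in scaled FPKM, was 0.960, 0.915 and 1.42 in regenerating libraries and 0.536, 0.299 and 0.410 in uninjured libraries. All regenerating ratios lay above all uninjured ones, and a two-sided exact permutation test gave p = 0.1, the lower limit of a design of 3 and 3 libraries. The ratio was chosen after the values of both genes were seen.

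The gene her2 of the same family did not pass the filter on low values and was not tested. It measured 3.24, 2.69 and 0.463 scaled FPKM in regenerating libraries and 0.256, 0.545 and 0.292 in uninjured libraries. Regenerating replicate 3 lay inside the uninjured range. At this length of 774 nt the floor for genes without counts is between 0.148 and 0.294 scaled FPKM across libraries. The values of uninjured replicates 1 and 3 lay within that floor range, so they cannot be told from those of a gene without counts.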
